A study of Mus with 15 samples.

Results

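Ribosome biogenesis factors are the proteins and enzymes that transcribe, modify, cut and fold ribosomal RNA and join it to ribosomal proteins. A list of 37 such genes, nucleolar factors and RNA polymerase I subunits, was followed here in sorted mouse thymocytes. The genes were chosen by symbol, with earlier results of these data known. All 37 were found among the 55573 Ensembl genes of the count table, and 37 of 37 passed the filter on low counts. They comprised 4 abundant nucleolar proteins (Ncl, Npm1, Ddx21 and Mybbp1a), 8 proteins of small nucleolar ribonucleoproteins or snoRNPs (Fbl, Nop56, Nop58, Rrp9, Dkc1, Gar1, Nhp2 and Nolc1), 2 subunits of RNA polymerase I (Polr1a and Polr1b), 12 factors of the small subunit (Heatr1, Wdr43, Wdr75, Utp4, Utp15, Utp20, Nop14, Noc4l, Rrp12, Tsr1, Ltv1 and Bysl) and 11 factors of the large subunit (Nop2, Nop16, Bop1, Pes1, Wdr12, Rrs1, Rrp1b, Noc2l, Noc3l, Ddx18 and Gnl3).

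Ribosomes are built in the nucleolus, where RNA polymerase I copies the ribosomal DNA into a long precursor. snoRNPs mark that precursor by methylation and pseudouridylation, and separate sets of assembly factors then cut it and shape the small and the large subunit. In T cells the making of ribosomes is known to rise when signals through the antigen receptor and cytokine receptors drive growth, and many of these genes are known targets of the transcription factor MYC.

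The study followed the development of regulatory T cells (Tregs) in the thymus. Thymocytes came from 6-week-old female C57Bl/6 x Foxp3-GFP mice, in which a green fluorescent reporter shows FOXP3, the transcription factor that defines Tregs. After mechanical dissociation and magnetic removal of CD8+ cells, 5 gates were sorted with 3 libraries each, numbered 40, 42 and 43, and all 5 gates took live TCRb+ CD4+ CD8- CD73- cells. Conventional CD4 single-positive cells (CD4SP) were Bst2- CD25- Foxp3-, CD25+ progenitors were Bst2- CD25+ Foxp3-, FOXP3lo progenitors were Bst2- CD25- Foxp3lo and mature Tregs were Bst2- CD25+ Foxp3+. The Bst2+ gate took Bst2+ cells that were CD25+, Foxp3+ or both. CD25 is the alpha chain of the interleukin-2 receptor, and BST2 is a membrane protein that interferon induces. The labels describe 3 biological replicates that recur in every gate and 1 sort, and leave unsaid whether mice were pooled for a replicate, and p-values therefore measure the spread between these samples.

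Each library held 10816064 to 23758157 counts, and the lowest raw count of any of the 37 factors in any library was 155. Levels are given as CPM, a gene's counts per 1000000 counts of its library after scaling of the library sizes, so each is a share of the measured RNA. In bulk samples of this kind, fewer cells of a type and less RNA per cell cannot be told apart. Foxp3 followed the labels in the 4 BST2-negative gates. It averaged 0.951 CPM in conventional, 3.202 in CD25+, 290.0 in FOXP3lo and 598 in mature Treg libraries. Il2ra, which encodes CD25, averaged 9.07, 289, 107 and 1152 CPM in the same order. Its RNA was highest in the gates sorted as CD25+, but FOXP3lo progenitors, sorted as CD25-, lay well above conventional cells. A list of 10 defining T cell genes was detected in full in every gate, but its level differed between gates. It summed to 4179.7 to 4662 CPM in conventional, 3268 to 3508 in CD25+, 3928 to 4024 in FOXP3lo and 2919 to 3017 in mature Treg libraries. Against conventional cells 9 of the 10 were lower in the CD25+ gate, 3 in the FOXP3lo gate and 10 among mature Tregs, and the part of this difference in the results was not tested. The Bst2+ libraries stood apart: Bst2 itself was at 50.3, 18.4 and 15.7 CPM in replicates 40, 42 and 43 against gate means of 12.2 to 15.1 elsewhere, 9 of 12 myeloid markers were detected in all 3 libraries with a summed level of 605 to 993 CPM against at most 7.54 CPM and 1 of 12 in each other gate, and the biological coefficient of variation was 0.947 against 0.149 to 0.240 in the other gates. The comparisons among the other 4 gates were therefore fitted on 12 libraries, and the Bst2+ gate is described last.

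The 37 factors as a group were highest in CD25+ progenitors and lowest in FOXP3lo progenitors. Their summed level was 3762 ± 109 CPM in conventional, 6918 ± 90.9 in CD25+, 3010.0 ± 86.5 in FOXP3lo and 4459.9 ± 187.1 in mature Treg libraries (SD, n = 3 each). Ncl and Npm1 made up a large part of these sums, and without them the sums were 2454 ± 37.4, 3801 ± 98.7, 1678 ± 77.6 and 2413 ± 96.6 CPM in the same order. With Ncl and Npm1, mature Tregs lay above conventional cells in every library. Without them, the libraries of those gates overlapped. Of the 37 factors, 37 had their highest mean among the 4 gates in CD25+ progenitors, and 35 had their lowest in FOXP3lo progenitors, with Ncl and Npm1 lowest in conventional cells. In between, 22 factors were higher in conventional cells than in mature Tregs and 15 were lower, mostly with overlapping libraries. The order of the gates was counted for the 37 factors only, not over all genes. Replicates lay close together: the median coefficient of variation of a factor was 8.14% in conventional, 5.34% in CD25+, 7.59% in FOXP3lo and 9.18% in mature Treg libraries.

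**Figure D1:**
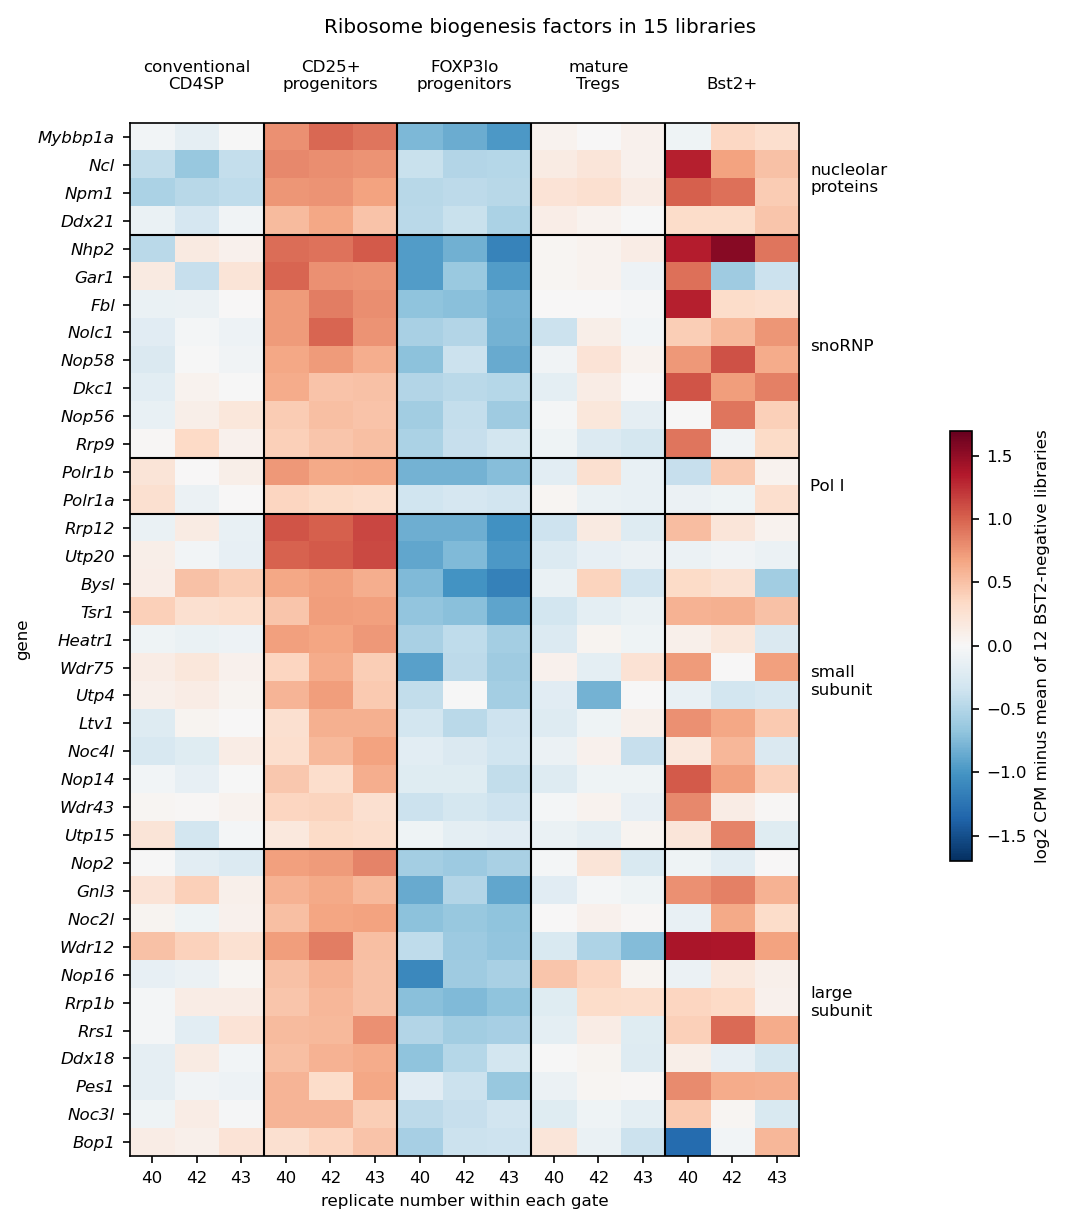
Heat map of the 37 factors (rows, grouped by role) in 15 libraries (columns, by gate and replicate number); colour is log2 CPM minus that gene's mean over the 12 BST2-negative libraries. The CD25+ columns are red and the FOXP3lo columns blue for nearly all genes, Ncl and Npm1 are about as blue in conventional cells as in FOXP3lo progenitors, and the 3 Bst2+ columns differ from each other.

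The nucleolar proteins held the most abundant factors. Per kilobase of exonic sequence and averaged over the 4 gates, Npm1 stood at 239.8 CPM, Ncl at 129 and Ddx21 at 54.9, and the lowest factor was Wdr12 at 3.02. These lengths cover every annotated exon, and reads that fit several places were dropped by the quality limit, so the level of a gene with processed copies such as Npm1 is uncertain, in the same way in every library. Ncl (ENSMUSG00000026234, chromosome 1, 86344719 to 86359400; all coordinates GRCm38) encodes nucleolin, an RNA-binding protein of ribosomal RNA transcription and processing. It lay at 919, 787 and 928 CPM in conventional, 2159, 2117 and 2087 in CD25+, 943, 870.0 and 876 in FOXP3lo and 1352, 1418 and 1286 in mature Treg libraries (replicates 40, 42 and 43). Every CD25+ library was above every mature Treg library, every mature Treg library was above the rest, and conventional and FOXP3lo libraries overlapped. Npm1 (ENSMUSG00000057113, chromosome 11, 33152287 to 33163206) encodes nucleophosmin, a chaperone of ribosome assembly and export. Its levels were 414, 434 and 443 CPM in conventional, 1009, 1015 and 964 in CD25+, 432, 442 and 432 in FOXP3lo and 704, 726 and 654 in mature Treg libraries, in the same order and with the same overlap.

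The other nucleolar proteins were lower in the FOXP3lo gate than in conventional cells. Mybbp1a (ENSMUSG00000040463, chromosome 11, 72441355 to 72451768) encodes a nucleolar protein that takes part in RNA polymerase I transcription and precursor processing. It was at 168, 155 and 171 CPM in conventional, 294, 338 and 324 in CD25+, 101, 95.7 and 87.7 in FOXP3lo and 179.8, 173 and 182 in mature Treg libraries, and no gates overlapped. Ddx21 (ENSMUSG00000020075, chromosome 10, 62580251 to 62602281), an RNA helicase that couples transcription by RNA polymerase I to processing, was at 253, 226 and 262 CPM in conventional, 397, 434 and 386 in CD25+, 199, 212 and 189 in FOXP3lo and 296, 286 and 272 in mature Treg libraries. Here too no pair of gates overlapped, with CD25+ progenitors highest, then mature Tregs, conventional cells and FOXP3lo progenitors.

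Among the box C/D snoRNP proteins, Fbl (ENSMUSG00000046865, chromosome 7, 28169710 to 28179269) encodes fibrillarin, the methyltransferase of these particles. Fbl was at 56.0, 56.5 and 60.6 CPM in conventional, 99.5, 111 and 104 in CD25+, 37.4, 36.8 and 34.8 in FOXP3lo and 60.5, 60.6 and 59.8 in mature Treg libraries. Nop56 (ENSMUSG00000027405, chromosome 2, 130274430 to 130279313), a core protein of the same particles, was at 121, 141 and 151 CPM in conventional, 177, 186.7 and 184 in CD25+, 87.4, 98.7 and 86.3 in FOXP3lo and 129, 150.04 and 118 in mature Treg libraries. For both genes the CD25+ libraries were all above and the FOXP3lo libraries all below the rest, while conventional cells and mature Tregs overlapped. Nop58, the partner of Nop56, averaged 103 ± 8.84 CPM in conventional, 175 ± 5.82 in CD25+, 71.6 ± 12.8 in FOXP3lo and 116 ± 11.9 in mature Treg libraries. Rrp9, a protein of the U3 snoRNP, averaged 33.6 ± 4.19, 41.9 ± 1.502, 22.8 ± 1.74 and 26.4 ± 2.104 CPM in that order, and was the only factor of the snoRNP group whose mature Treg libraries all lay below the conventional ones.

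Dkc1 (ENSMUSG00000031403, chromosome X, 75095854 to 75109777) encodes dyskerin, the pseudouridine synthase of the box H/ACA snoRNPs. It was at 73.1, 86.2 and 82.4 CPM in conventional, 128.5, 116 and 117 in CD25+, 58.8, 60.2 and 59.5 in FOXP3lo and 74.3, 91.0 and 83.1 in mature Treg libraries. Nhp2 (ENSMUSG00000001056, chromosome 11, 51619735 to 51623714), which binds the H/ACA RNA, was at 24.6, 37.5 and 35.4 CPM in conventional, 65.2, 63.8 and 69.6 in CD25+, 17.4, 19.1 and 15.4 in FOXP3lo and 34.6, 35.3 and 36.8 in mature Treg libraries, and of the snoRNP proteins had the largest ratio of CD25+ to FOXP3lo means, 3.82. Both had conventional and mature Treg libraries that overlapped between separate high CD25+ and low FOXP3lo groups. Gar1, the remaining H/ACA core protein on the list, averaged 19.2 ± 4.10, 34.2 ± 3.13, 10.7 ± 1.42 and 19.02 ± 1.02 CPM across conventional, CD25+, FOXP3lo and mature Treg libraries. Nolc1, a nucleolar and Cajal body chaperone of snoRNPs, averaged 96.0 ± 5.18, 184 ± 18.3, 67.5 ± 7.49 and 97.4 ± 15.6 CPM in that order.

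Of the RNA polymerase I subunits, Polr1a (ENSMUSG00000049553, chromosome 6, 71909053 to 71984935), the largest and catalytic subunit, was at 131, 102 and 109 CPM in conventional, 139.6, 136 and 133 in CD25+, 85.7, 88.6 and 86.5 in FOXP3lo and 110.4, 99.7 and 98.8 in mature Treg libraries. Polr1b (ENSMUSG00000027395, chromosome 2, 129100995 to 129126594), the subunit that completes the active centre, was at 32.3, 28.0 and 29.7 CPM in conventional, 46.4, 43.3 and 43.8 in CD25+, 15.9, 15.9 and 16.8 in FOXP3lo and 24.5, 33.6 and 25.5 in mature Treg libraries. The CD25+ libraries were highest and the FOXP3lo libraries lowest without overlap for both subunits. The spread between gates was wider for Polr1b, whose CD25+ mean was 2.75 times its FOXP3lo mean, than for Polr1a, at 1.57 times.

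**Figure D2:**
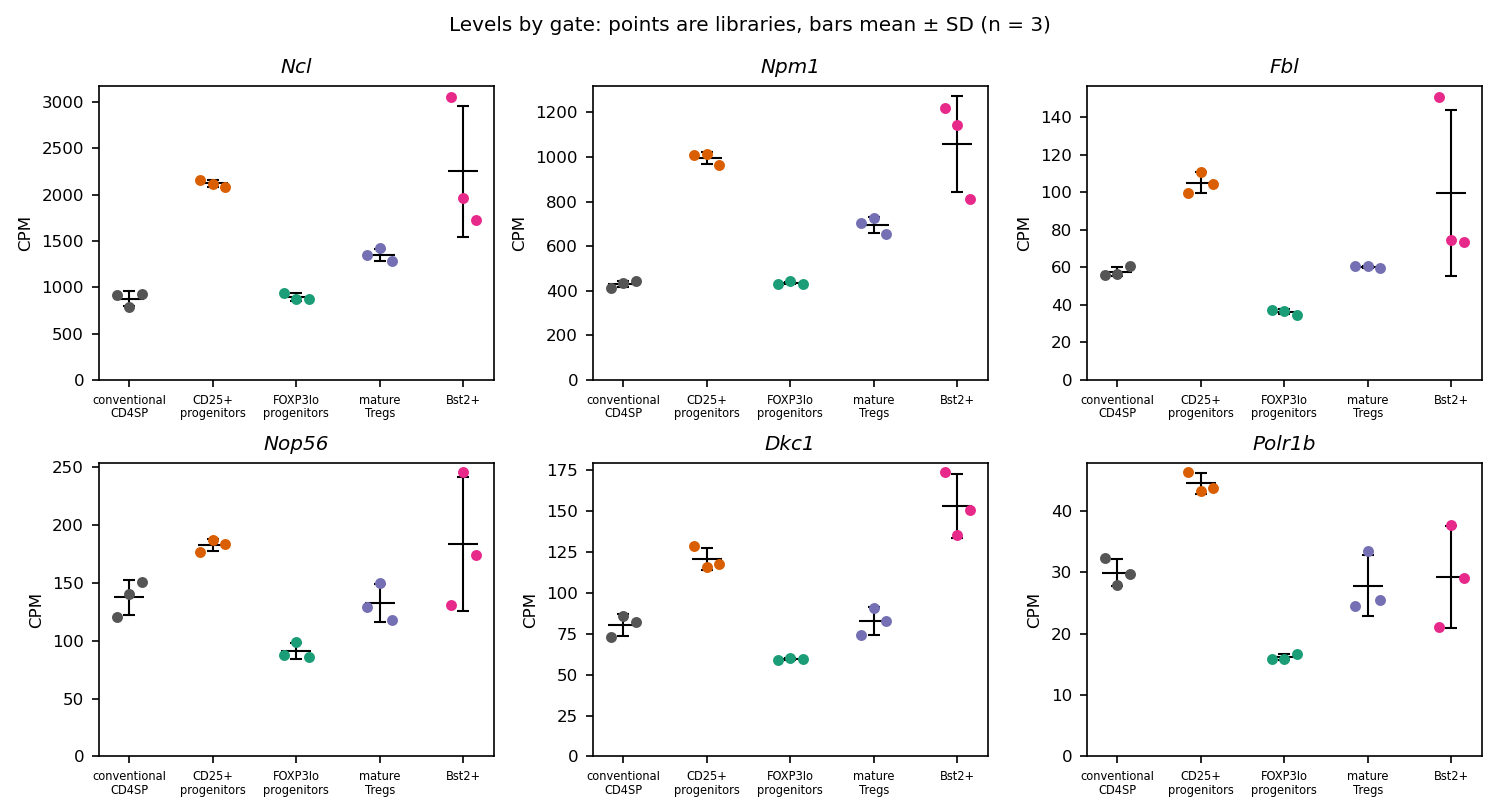
CPM (y axis, from 0) of Ncl, Npm1, Fbl, Nop56, Dkc1 and Polr1b in 5 gates (x axis), with 1 point per library and bars for the mean ± SD of 3 libraries. Ncl and Npm1 have mature Treg libraries well above the conventional ones (1352 against 878 CPM on average for Ncl), while Fbl, Nop56, Dkc1 and Polr1b overlap there and drop only in the FOXP3lo gate.

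The small-subunit factors held the widest and the narrowest ranges of the list. Utp20 (ENSMUSG00000004356, chromosome 10, 88746607 to 88826804), a large scaffold of the small-subunit processome, was at 94.3, 85.6 and 80.1 CPM in conventional, 177, 182 and 192 in CD25+, 47.8, 52.5 and 44.7 in FOXP3lo and 75.4, 79.8 and 82.2 in mature Treg libraries. Rrp12 (ENSMUSG00000035049, chromosome 19, 41862851 to 41896173), which takes part in maturation and export of the pre-40S particle, was at 31.3, 37.3 and 31.0 CPM in conventional, 70.9, 68.3 and 74.4 in CD25+, 19.1, 19 and 16.6 in FOXP3lo and 26.6, 37.6 and 29.1 in mature Treg libraries. Their CD25+ means were 3.80 and 3.90 times their FOXP3lo means, and the latter was the largest such ratio of the 37. At the other end, Utp15 (ENSMUSG00000041747, chromosome 13, 98246845 to 98263041), a subunit of the UTP-A complex that binds the precursor first, was at 52.3, 36.1 and 44.1 CPM in conventional, 51.0, 56.3 and 55.2 in CD25+, 42.6, 40.1 and 39.3 in FOXP3lo and 41.8, 40.1 and 46.7 in mature Treg libraries. Its CD25+ libraries overlapped the conventional ones, the only factor of the 37 where they did, and the other 3 gates overlapped one another.

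Heatr1 (ENSMUSG00000050244, chromosome 13, 12395027 to 12440289), another UTP-A subunit, was at 125, 122 and 124 CPM in conventional, 213, 209.8 and 221 in CD25+, 89.9, 98.2 and 88.2 in FOXP3lo and 112, 136 and 125 in mature Treg libraries. Its conventional and mature Treg libraries overlapped. Utp4 (ENSMUSG00000041438, chromosome 8, 106893636 to 106923088), of the same complex, was at 30.2, 31.1 and 29.5 CPM in conventional, 42.6, 46.5 and 38.9 in CD25+, 21.3, 28.4 and 19.1 in FOXP3lo and 25.1, 16.4 and 28.4 in mature Treg libraries, with conventional libraries above the mature Treg and FOXP3lo libraries. The UTP-A subunits Wdr43 and Wdr75 averaged 156 ± 1.99 and 37.6 ± 1.51 CPM in conventional cells, 192 ± 8.06 and 47.9 ± 4.91 in CD25+ progenitors, and 119.9 ± 3.07 and 22.1 ± 3.65 in FOXP3lo progenitors. Nop14 and Noc4l, which bind each other in the processome, averaged 73.5 ± 3.22 and 18.3 ± 2.79 CPM in conventional cells against 63.5 ± 5.36 and 16.5 ± 0.890 in FOXP3lo progenitors, among the smallest differences of the list.

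The late factors of the small subunit followed the order CD25+, conventional, mature Treg, FOXP3lo. Tsr1 (ENSMUSG00000038335, chromosome 11, 74898071 to 74909342), a GTPase-like factor of the pre-40S particle, was at 70.5, 64.3 and 65.7 CPM in conventional, 74.1, 87.5 and 86.4 in CD25+, 33.6, 32.6 and 28.6 in FOXP3lo and 43.0, 47.8 and 49.4 in mature Treg libraries, with no overlap between any gates. Bysl (ENSMUSG00000023988, chromosome 17, 47599331 to 47611492), the bystin protein of the same particle, was at 26.3, 34.4 and 32.5 CPM in conventional, 38.3, 39.4 and 37.3 in CD25+, 14.5, 12.1 and 10.96 in FOXP3lo and 22.6, 31.6 and 19.5 in mature Treg libraries. Its FOXP3lo libraries lay far below all others, its CD25+ libraries were only slightly above the conventional ones, and the mature Treg libraries spread widely between them. Ltv1, which leaves the particle before its final maturation, averaged 36.2 ± 3.45 CPM in conventional, 53.0 ± 6.67 in CD25+, 28.9 ± 1.49 in FOXP3lo and 35.8 ± 3.85 in mature Treg libraries.

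For the large subunit, Bop1, Pes1 and Wdr12 encode the 3 members of the PeBoW complex. Wdr12 (ENSMUSG00000026019, chromosome 1, 60069785 to 60098645) was at 47.2, 43.9 and 39.9 CPM in conventional, 54.5, 61.2 and 47.6 in CD25+, 24.8, 21.8 and 20.998 in FOXP3lo and 28.0, 23.3 and 20.1 in mature Treg libraries, and the mature Treg and FOXP3lo libraries overlapped. Bop1 (ENSMUSG00000022557, chromosome 15, 76452989 to 76477277) was at 40.4, 39.3 and 43.4 CPM in conventional, 44.7, 47.6 and 52.1 in CD25+, 25.1, 28.7 and 29.1 in FOXP3lo and 42.9, 34.4 and 28.8 in mature Treg libraries, and its mature Treg libraries overlapped those of conventional cells and FOXP3lo progenitors. Pes1 averaged 51.5 ± 1.85, 79.4 ± 9.61, 42.1 ± 6.40 and 54.7 ± 2.91 CPM across conventional, CD25+, FOXP3lo and mature Treg libraries, with mature Tregs and conventional cells overlapping.

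Noc2l (ENSMUSG00000095567, chromosome 4, 156235919 to 156247616) and Noc3l form a complex of early large-subunit assembly. Noc2l was at 167, 155 and 170.3 CPM in conventional, 231, 257 and 261 in CD25+, 100.2, 104 and 100.4 in FOXP3lo and 162, 171 and 164 in mature Treg libraries, and Noc3l averaged 45.9 ± 3.21, 65.6 ± 4.18, 34.8 ± 1.44 and 41.1 ± 1.94 CPM in the same order. Nop16 (ENSMUSG00000025869, chromosome 13, 54584185 to 54590090), a nucleolar factor of the large subunit, was at 18.1, 18.6 and 20.5 CPM in conventional, 28.4, 30.3 and 28.2 in CD25+, 9.33, 13.1 and 13.7 in FOXP3lo and 27.7, 25.8 and 20.6 in mature Treg libraries, and its mature Treg libraries all lay above the conventional ones and below the CD25+ ones. Gnl3 (ENSMUSG00000042354, chromosome 14, 31012433 to 31019152), the GTPase nucleostemin, was at 77.1, 86.8 and 69.7 CPM in conventional, 98.7, 102 and 96.0 in CD25+, 36.1, 46.1 and 35.5 in FOXP3lo and 57.2, 64.1 and 62.3 in mature Treg libraries, with no overlap between any gates and mature Tregs below conventional cells. The remaining large-subunit factors had overlapping conventional and mature Treg libraries between high CD25+ and low FOXP3lo ones. They were Nop2, a methyltransferase of the large ribosomal RNA, at 81.6 ± 4.52 CPM in CD25+ and 32.4 ± 0.725 in FOXP3lo progenitors, Rrs1, which helps to load the 5S particle, at 51.1 ± 4.81 and 22.6 ± 0.702, Rrp1b at 62.7 ± 2.16 and 26.7 ± 0.590, and the helicase Ddx18 at 52.0 ± 2.31 and 24.9 ± 3.23.

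The first comparison asked what accompanies CD25 in cells sorted as Foxp3-. Foxp3 RNA was low in both gates and higher on average in the CD25+ one, as given above. CD25+ progenitors had higher levels than conventional cells of ribosome biogenesis factors of every role, by a median log2 fold change of 0.59, with single factors between 0.23 and 1.27. Of the 37, 32 rose and 0 fell at an adjusted p under 0.05 in edgeR's quasi-likelihood test, where 14.7% of all 15648 genes tested rose, 14.3% fell and the median was −0.01. By role, 4 of 4 nucleolar proteins, 7 of 8 snoRNP proteins, 2 of 2 polymerase subunits, 10 of 12 small-subunit and 9 of 11 large-subunit factors rose. Ncl and Npm1 changed most: Ncl rose by a log2 fold change of 1.27 ± 0.06 (adjusted p = 1.03e-19) and Npm1 by 1.21 ± 0.06 (adjusted p = 1.27e-19), which are 2.42-fold and 2.32-fold. Mybbp1a rose 1.94-fold, by 0.95 ± 0.07 (adjusted p = 4.52e-14). Rrp12 (1.10 ± 0.12), Utp20 (1.08 ± 0.08) and Nhp2 (1.04 ± 0.13) rose by a similar size, and Fbl by 0.86 ± 0.09 (adjusted p = 3.15e-10). Nop56 (0.41 ± 0.08, adjusted p = 0.000152), Dkc1 (0.59 ± 0.09, adjusted p = 9.16e-07), Polr1b (0.57 ± 0.13, adjusted p = 0.000846) and Polr1a (0.26 ± 0.08, adjusted p = 0.015) rose by less.

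The 5 factors that did not pass had positive values as well: Bop1 0.23 ± 0.13, Bysl 0.31 ± 0.15, Wdr12 0.32 ± 0.13, Rrp9 0.32 ± 0.13 and Utp15 0.29 ± 0.12. With the replicate number as a block, Wdr12 (adjusted p = 0.0371) and Utp15 (adjusted p = 0.0435) passed too. For 36 of 37 factors all 3 CD25+ libraries lay above all 3 conventional ones, where 20.3% of all genes did so. Within replicate numbers, 36, 37 and 37 factors were higher in replicates 40, 42 and 43. Counts within replicates, here and below, were made for the 37 factors only, not over all genes. Markers of CD8 and immature thymocytes (8 genes such as Cd8a, Rag1 and Ptcra) summed to 179 to 226 CPM in CD25+ progenitors, where 8 of 8 were detected in all libraries, and to 80.2 to 123 in conventional cells, where 6 of 8 were. Those of gamma-delta T cells summed to 38.9 to 44.8 and 14.97 to 22.95 CPM, those of B cells to 21.05 to 24.5 and 32.1 to 41.0, and those of thymic stroma, among which Krt5 was at 0, to 121 to 133 and 173 to 199. Single markers did not all follow these sums. Of 8 CD8 and immature markers 4 rose and 2 fell, and of 5 tested gamma-delta markers 3 rose and 0 fell. Of 4 tested B cell markers 1 rose and 1 fell, as did 1 and 1 of 2 tested stromal markers. The part of these cells in the result was not tested. Of 29 cell cycle genes 7 rose and 1 fell, with a median of −0.03, and their sum was 1497 to 1716 CPM in CD25+ progenitors, above the 1242 to 1377 of conventional cells in all 3 libraries. Their part in the result was not tested. Fitted on all 15 libraries, 20 of 37 rose and 0 fell, where 5.98% of all genes rose and 5.66% fell. Polr1a lost its call without CD25+ replicate 40 (adjusted p = 0.0523) or conventional replicates 42 (adjusted p = 0.138) or 43 (adjusted p = 0.0782), and over all left-out libraries the count ran from 28 to 35. The count of all genes that rose ran from 1970 to 2453 in those fits.

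FOXP3lo progenitors, sorted for some FOXP3 and no surface CD25, had lower levels of most ribosome biogenesis factors than conventional cells. The median log2 fold change was −0.56, and single factors lay between −1.31 and 0.03. Of the 37, 30 fell and 0 rose, where 12.3% of all genes fell, 12.8% rose and the median was −0.01. The fall took in 8 of 8 snoRNP proteins, 2 of 2 polymerase subunits, 11 of 11 large-subunit factors, 7 of 12 small-subunit factors and 2 of 4 nucleolar proteins. The most significant were Mybbp1a at −0.80 ± 0.07 (adjusted p = 1.72e-11), Tsr1 at −1.08 ± 0.10 (adjusted p = 4.18e-11) and Utp20 at −0.84 ± 0.09 (adjusted p = 2.06e-10). Bysl changed most, at −1.31 ± 0.16 (adjusted p = 2.27e-08), a 2.47-fold lower level. Gnl3 (−0.99 ± 0.10), Wdr12 (−0.96 ± 0.13), Nhp2 (−0.90 ± 0.14) and Polr1b (−0.89 ± 0.14) fell by nearly as much. Fbl (−0.67 ± 0.09), Nop56 (−0.59 ± 0.09), Dkc1 (−0.43 ± 0.09) and Polr1a (−0.39 ± 0.08) fell by less.

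The most abundant factors were not part of this fall. Ncl had a log2 fold change of 0.03 ± 0.06 and Npm1 of 0.02 ± 0.06, while the small-subunit factors Utp15 (−0.13 ± 0.12), Noc4l (−0.15 ± 0.17), Nop14 (−0.21 ± 0.09), Ltv1 (−0.32 ± 0.12) and Utp4 (−0.40 ± 0.16) were lower without passing the test. With the replicate block Ltv1 passed (adjusted p = 0.0456). For 33 of 37 factors all FOXP3lo libraries lay below all conventional ones, against 20.2% of all genes, and 34, 34 and 37 factors were lower within replicates 40, 42 and 43. Cell cycle genes were lower in the same libraries: 27 of 29 fell, by a median log2 fold change of −1.52, and they summed to 617 to 629 CPM against 1242 to 1377. Markers of CD8 and immature thymocytes, 6 of 8 detected in all libraries of each gate, summed to 48.5 to 53.9 CPM against 80.2 to 123, and those of thymic stroma, 3 and 5 of 10 detected, to 266 to 302 against 173 to 199. Only 2 stromal markers passed the filter on low counts, and 2 rose, while Foxn1 and Krt5 had no counts in the FOXP3lo libraries. The part of these cells and of the cell cycle in the result was not tested.

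Set against each other, the progenitors differed in every factor. All 37 were higher in CD25+ than in FOXP3lo progenitors, by a median log2 fold change of 1.22 and a range of 0.42 to 1.97, where 19.9% of all genes tested rose, 19.7% fell and the median was −0.02. The direction was the same for each of the 37 in each replicate number, and for 37 of 37 the libraries did not overlap, against 25.3% of all genes. Mybbp1a (1.75 ± 0.07, adjusted p = 6.51e-22, 3.36-fold), Utp20 (1.93 ± 0.09, adjusted p = 3.46e-21) and Npm1 (1.19 ± 0.06, adjusted p = 1.07e-19) had the smallest p-values. Rrp12 had the largest difference, 1.97 ± 0.13 (adjusted p = 4.2e-16) or 3.91-fold, followed by Nhp2 at 1.94 ± 0.13, and Utp15 had the smallest, 0.42 ± 0.12 (adjusted p = 0.00361). Fbl (1.53 ± 0.09), Polr1b (1.46 ± 0.14), Ncl (1.24 ± 0.06), Dkc1 (1.02 ± 0.09) and Nop56 (1.01 ± 0.09) were all at least 2.01-fold higher, and Polr1a was 1.57-fold higher. Cell cycle genes differed the same way, 26 of 29 higher by a median of 1.54, as did 7 of 8 CD8 and immature markers. Gamma-delta T cell markers were higher in 4 of 5 tested, by a median of 5.92, with a sum of 38.9 to 44.8 against 10.5 to 16.6 CPM. Of the 10 defining T cell genes 7 were lower and 1 higher. The part of these genes and cells in the result was not tested.

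**Figure D3:**
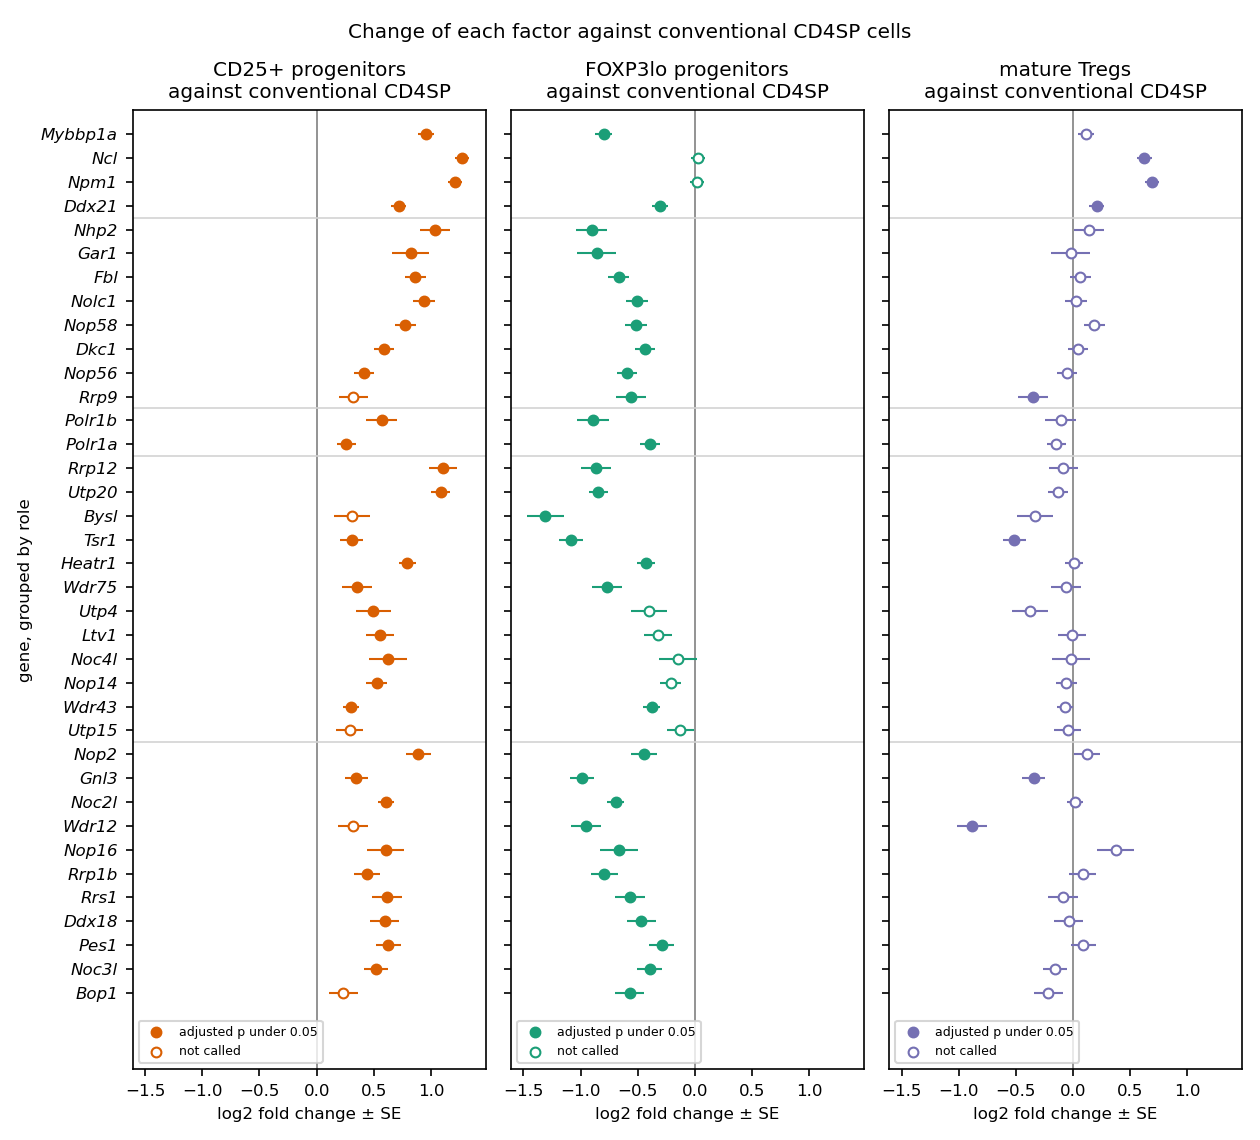
Log2 fold change against conventional CD4SP cells with its standard error (x axis) for the 37 factors (y axis, grouped by role) in 3 panels, for CD25+ cells, FOXP3lo cells and mature Tregs, with filled points where the adjusted p was under 0.05. Filled points lie to the right for 32 factors in the CD25+ panel and to the left for 30 in the FOXP3lo panel, and in the mature Treg panel only 7 are filled, with Ncl and Npm1 farthest right and Wdr12 farthest left.

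Mature Tregs, with CD25 and full FOXP3, had more Ncl and Npm1 than conventional cells, while 30 of 37 factors did not pass the test in either direction. Of the 37, 3 rose and 4 fell, where 15.1% of all genes rose and 15.3% fell, and the median log2 fold change was −0.04 for the factors and −0.01 for all genes. The 3 that rose were all abundant nucleolar proteins: Npm1 by 0.69 ± 0.06 (adjusted p = 1.77e-12), Ncl by 0.62 ± 0.06 (adjusted p = 8.23e-11) and Ddx21 by 0.21 ± 0.07 (adjusted p = 0.0205). The 4 that fell were Wdr12 at −0.88 ± 0.13 (adjusted p = 9.92e-07), Tsr1 at −0.51 ± 0.10 (adjusted p = 9.68e-05), Gnl3 at −0.34 ± 0.10 (adjusted p = 0.00728) and Rrp9 at −0.35 ± 0.13 (adjusted p = 0.0403). Fbl (0.06 ± 0.09), Nop56 (−0.05 ± 0.09), Dkc1 (0.04 ± 0.09), Polr1a (−0.15 ± 0.08) and Polr1b (−0.11 ± 0.14) did not pass, nor did the other 25. Groups did not overlap for 5 factors that were higher (19.7% of all genes) and 6 that were lower (20.5%), and within replicates 40, 42 and 43 the factors that were higher in mature Tregs numbered 14, 23 and 16. Cell cycle genes were much lower in these libraries, with 21 of 29 falling, 1 rising and a median over the list of −1.33. Of 8 CD8 and immature markers 3 fell, and they summed to 59.7 to 62.5 against 80.2 to 123 CPM. The part of these genes and cells in the result was not tested. Without conventional replicate 42, Ddx21 (adjusted p = 0.160), Rrp9 (adjusted p = 0.233) and Gnl3 (adjusted p = 0.0760) lost their calls, which left 2 rises and 2 falls. Ddx21 also lost its call without mature Treg replicates 40 or 42, and Rrp9 without conventional replicate 43 or mature Treg replicates 42 or 43. Fitted on all 15 libraries 2 rose and 2 fell as well, where 6.45% and 5.73% of all genes did.

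Compared with CD25+ progenitors, mature Tregs had less of nearly every factor. Of the 37, 36 fell and 0 rose, by a median log2 fold change of −0.64, where 16.8% of all genes fell, 15.9% rose and the median was −0.01. Utp20 (−1.21 ± 0.08, adjusted p = 3.23e-15), Mybbp1a (−0.84 ± 0.07, adjusted p = 1.68e-12) and Ncl (−0.65 ± 0.06, adjusted p = 2.98e-11) had the smallest p-values, and Utp20 was also the lowest. Wdr12 (−1.20 ± 0.13) and Rrp12 (−1.19 ± 0.13) fell by about as much. Npm1 (−0.52 ± 0.06), Fbl (−0.80 ± 0.09), Dkc1 (−0.54 ± 0.09), Nop56 (−0.47 ± 0.09), Polr1b (−0.68 ± 0.14) and Polr1a (−0.41 ± 0.08) fell too. Nop16 was the exception, at −0.23 ± 0.16 (adjusted p = 0.301), although its 3 mature Treg libraries lay below its 3 CD25+ libraries as they did for 37 of 37 factors (21.5% of all genes). Cell cycle genes fell in 25 of 29, with a median of −1.21. Markers of CD8 and immature thymocytes fell in 5 of 8, by a median of −2.42, to a sum of 59.7 to 62.5 CPM from 179 to 226. Those of gamma-delta T cells fell in 4 of 5 tested, by a median of −3.62, to 10.7 to 18.98 CPM from 38.9 to 44.8. The part of the cell cycle and of these cells in the result was not tested.

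Against FOXP3lo progenitors, mature Tregs had more of most factors. Of the 37, 28 rose and 0 fell, by a median log2 fold change of 0.54, where 9.37% of all genes rose, 9.29% fell and the median was 0.00. Mybbp1a (0.91 ± 0.07, adjusted p = 1.14e-12), Npm1 (0.67 ± 0.06, adjusted p = 1.44e-11) and Noc2l (0.71 ± 0.07, adjusted p = 3.97e-10) had the smallest p-values. Nhp2 was the highest at 1.04 ± 0.14 (adjusted p = 1.38e-07), next to Nop16 at 1.03 ± 0.17 and Bysl at 0.97 ± 0.16. Fbl (0.73 ± 0.09), Ncl (0.59 ± 0.06), Polr1b (0.78 ± 0.14), Nop56 (0.54 ± 0.09) and Dkc1 (0.48 ± 0.09) rose as well, and Polr1a by 0.24 ± 0.08 (adjusted p = 0.0358), a call lost without mature Treg replicate 40 (adjusted p = 0.1803) or any FOXP3lo replicate. The 9 that did not pass were the small-subunit factors Utp4, the lowest at 0.02 ± 0.16, Utp15, Nop14, Noc4l and Ltv1, the snoRNP protein Rrp9, and the large-subunit factors Bop1, Wdr12 and Noc3l. Groups did not overlap for 31 of 37 (15.7% of all genes). Of 29 cell cycle genes 5 rose and 0 fell, with a median of 0.14, and their sum was 764 to 809 CPM in mature Tregs against 617 to 629, with no overlap. Of 8 CD8 and immature markers 3 rose and 1 fell, and 10 of 10 defining T cell genes fell. The part of these genes and cells in the result was not tested. The comparisons above share libraries, so the values of a factor in them are not independent of each other.

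An interaction term asked whether the difference that goes with CD25 was the same in the FOXP3-negative pair of gates (CD25+ progenitors minus conventional cells) and the FOXP3-positive pair (mature Tregs minus FOXP3lo progenitors). For most factors no difference between the pairs was called, and 31 of 37 did not pass. Of the 37, 5 had a smaller rise in the FOXP3-positive pair and 1 a larger, where 5.39% and 5.46% of all genes did, and the median was −0.13 for the factors and 0.01 for all genes. Ncl rose by 1.27 ± 0.06 in the first pair and 0.59 ± 0.06 in the second, an interaction of −0.68 ± 0.09 (adjusted p = 1.82e-07). Npm1 rose by 1.21 ± 0.06 and 0.67 ± 0.06, an interaction of −0.54 ± 0.08 (adjusted p = 7.97e-06). Heatr1 (−0.36 ± 0.11, adjusted p = 0.023), Utp20 (−0.37 ± 0.12, adjusted p = 0.0363) and Nolc1 (−0.41 ± 0.14, adjusted p = 0.0431) passed by less.

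Bysl was the factor with the opposite pattern. It was at 0.31 ± 0.15 in the FOXP3-negative pair, which did not pass, and rose by 0.97 ± 0.16 in the FOXP3-positive pair, an interaction of 0.66 ± 0.22 (adjusted p = 0.0478). Its call was lost in DESeq2 (adjusted p = 0.0502) and on leaving out any of 8 of the 12 libraries (adjusted p up to 0.241, without mature Treg replicate 42). Nolc1 and Utp20 lost theirs without any of 6 libraries each and Heatr1 without any of 3, with adjusted p up to 0.171, 0.141 and 0.0992, while Ncl and Npm1 kept theirs whichever single library was left out. Nolc1 also lost its call in DESeq2 (adjusted p = 0.0717), and Utp20 (adjusted p = 0.0776) and Heatr1 (adjusted p = 0.0641) did so in edgeR without the filter on low counts. With all 15 libraries in the fit 0 of 37 passed, where 1.19% and 1.16% of all genes were higher and lower, with Ncl at an adjusted p = 0.116 and Npm1 at an adjusted p = 0.0917. The FOXP3-positive gates differ in FOXP3 level as well as in CD25 (Foxp3 mean of 290.0 and 598 CPM). The rise in CD25 RNA was not the same in the pairs either. By the means given above, Il2ra rose by a smaller fold in the FOXP3-positive pair, from a higher level in FOXP3lo progenitors than in conventional cells. The term therefore compares gates and not CD25 alone, and the part of these differences was not tested.

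The remaining genes of the pathway were counted in lists that hold none of the 37, for RNA polymerase I, snoRNPs, the small and the large subunit. In CD25+ progenitors against conventional cells, 8 of 12 other snoRNP genes rose, led by the ATPases Ruvbl1 (0.94 ± 0.12) and Ruvbl2 (0.82 ± 0.11) that help to assemble these particles and by the assembly factor Naf1 (1.25 ± 0.21). Of 45 other small-subunit genes 23 rose and 1 fell, led by Utp18 (0.90 ± 0.11), Lyar (0.97 ± 0.12) and Pdcd11 (0.78 ± 0.10). Of 54 other large-subunit genes 25 rose and 0 fell, led by the giant ATPase Mdn1 (0.71 ± 0.07), Ddx27 (0.58 ± 0.08) and Gtpbp4 (0.54 ± 0.08). The medians of the snoRNP, small-subunit and large-subunit lists were 0.52, 0.33 and 0.24. Of all genes 14.7% rose and 14.3% fell. The other genes of RNA polymerase I and its initiation factors were mixed: 2 of 13 rose, Polr1c (0.54 ± 0.15) and Taf1d (0.21 ± 0.08), 1 fell, Taf1a (−0.52 ± 0.17), and the median was 0.13.

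In FOXP3lo progenitors against conventional cells, falls outnumbered rises in each of these lists, where 12.3% of all genes fell and 12.8% rose, but most genes fell only in the large-subunit list. Of other snoRNP genes 5 of 12 fell and 0 rose, of small-subunit genes 14 of 45 fell and 2 rose, of large-subunit genes 33 of 54 fell and 2 rose, and of RNA polymerase I genes 5 of 13 fell and 1 rose, with medians of −0.41, −0.16, −0.35 and −0.33. Falls were led by Nat10, an acetyltransferase of the small ribosomal RNA (−0.95 ± 0.10), Wdr46 (−0.62 ± 0.10), Pwp2 (−0.83 ± 0.14), Rrp15 (−1.29 ± 0.16), Sdad1 (−0.92 ± 0.11), Polr1c (−0.76 ± 0.15) and Polr1g (−0.80 ± 0.16). Nop53, a late large-subunit factor that brings in the nuclear exosome, went the other way, higher in FOXP3lo progenitors at 0.77 ± 0.07 (adjusted p = 1.29e-11) and in mature Tregs at 0.86 ± 0.07 (adjusted p = 3.23e-13). Between the progenitors, 10 of 12 snoRNP, 30 of 45 small-subunit, 38 of 54 large-subunit and 7 of 13 RNA polymerase I genes were higher in the CD25+ gate, with 0, 3, 3 and 1 lower. Rrp15 (2.08 ± 0.16), Rcl1 (1.54 ± 0.15), Nat10 (1.45 ± 0.10) and Ruvbl1 (1.46 ± 0.12) were among the leaders.

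In mature Tregs against conventional cells, the 4 lists had 1, 5, 4 and 0 genes higher and 0, 6, 15 and 2 lower. Their order is snoRNP, small subunit, large subunit and RNA polymerase I. Of all genes 15.1% were higher and 15.3% lower in this comparison. Naf1 rose there by 1.12 ± 0.21 (adjusted p = 3.65e-05), as it did in CD25+ progenitors, while Nat10 (−0.53 ± 0.10), Emg1 (−0.50 ± 0.09), Sdad1 (−0.69 ± 0.11), Senp3 (−0.48 ± 0.09), Taf1c (−0.47 ± 0.18) and Rrn3 (−0.29 ± 0.11) fell. Mature Tregs were lower than CD25+ progenitors in 7 of 12, 24 of 45, 36 of 54 and 5 of 13 genes of these lists, with 0, 4, 3 and 1 higher, and higher than FOXP3lo progenitors in 5, 12, 20 and 4, with 0, 0, 0 and 2 lower.

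**Figure D4:**
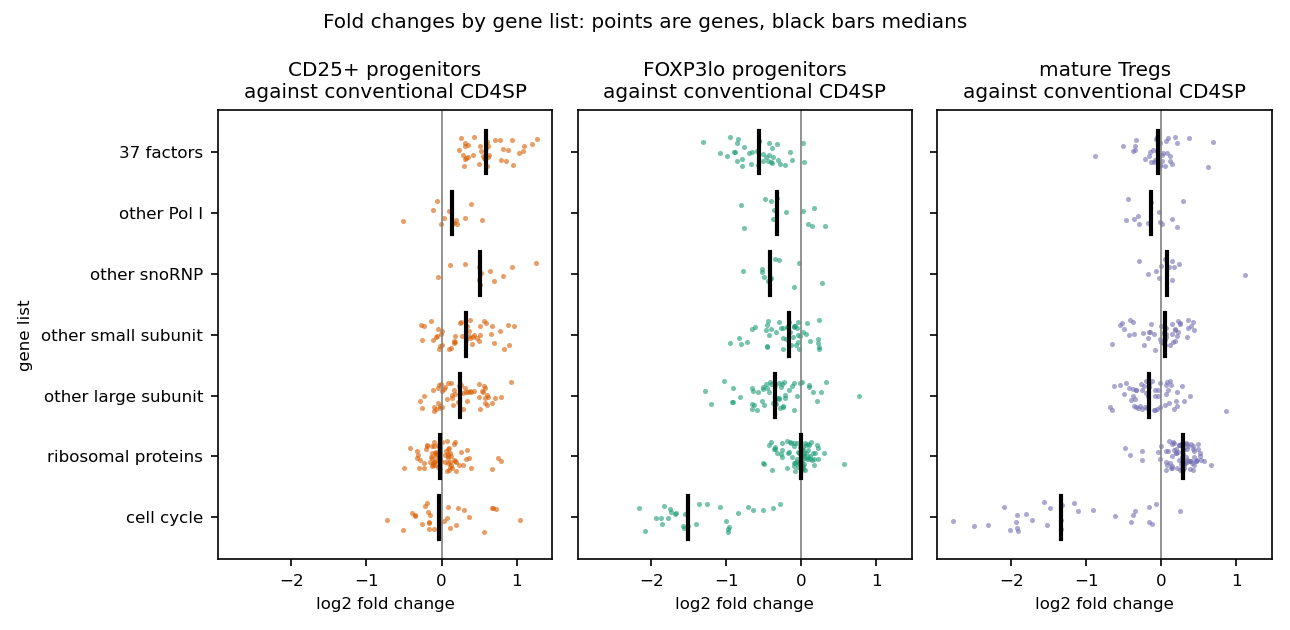
Log2 fold change against conventional CD4SP cells (x axis) for the genes of 7 lists (y axis), with 1 point per gene and a black bar at the median of each list, in 3 panels for CD25+ cells, FOXP3lo cells and mature Tregs. The 37 factors have medians of 0.59, −0.56 and −0.04, while ribosomal protein genes sit near 0 in both progenitor panels and at 0.29 in mature Tregs, and cell cycle genes sit near 0, at −1.52 and at −1.33.

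Ribosomal protein genes, which encode the protein parts of the finished ribosome, rose mainly in mature Tregs. Of 76 such genes, 13 rose and 10 fell in CD25+ progenitors against conventional cells (median −0.02), with Rps2 (0.79 ± 0.08) and Rps26 (0.34 ± 0.06) higher and Rps27 (−0.50 ± 0.09) lower. In FOXP3lo progenitors 6 rose and 10 fell (median −0.01), with Rps15a higher at 0.57 ± 0.07 and Rplp1 lower at −0.51 ± 0.08. In mature Tregs 52 of 76 rose and 3 fell, by a median of 0.29, led by Rps15a (0.66 ± 0.07), Rpl4 (0.52 ± 0.06) and Rps26 (0.53 ± 0.06). Of all genes, 14.7% rose and 14.3% fell in CD25+ progenitors, 12.8% and 12.3% in FOXP3lo progenitors, and 15.1% and 15.3% in mature Tregs. Their summed level was 29574 ± 3136 CPM in conventional, 29804 ± 1732 in CD25+, 29204 ± 737 in FOXP3lo and 35876 ± 1416 in mature Treg libraries, and only the mature Treg libraries lay apart from the rest. In the interaction 33 of 76 ribosomal protein genes were higher and 0 lower, where Ncl and Npm1 were lower. Of all genes 5.46% were higher and 5.39% lower in that term. Many ribosomal protein genes have processed copies in the genome, so their levels are uncertain. The 21 genes of RNA polymerase III, which makes the 5S ribosomal RNA and transfer RNAs, against conventional cells had 4 higher and 3 lower in the CD25+ gate, 1 higher and 3 lower in the FOXP3lo gate, and 0 higher and 7 lower among mature Tregs. Polr3d (−0.90 ± 0.15 in FOXP3lo progenitors) and the initiation factor Brf1 (−0.46 ± 0.08, −0.50 ± 0.08 and −0.70 ± 0.08 in the 3 gates) were among them. The shares of all genes in these gates are those given above.

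**Figure D5:**
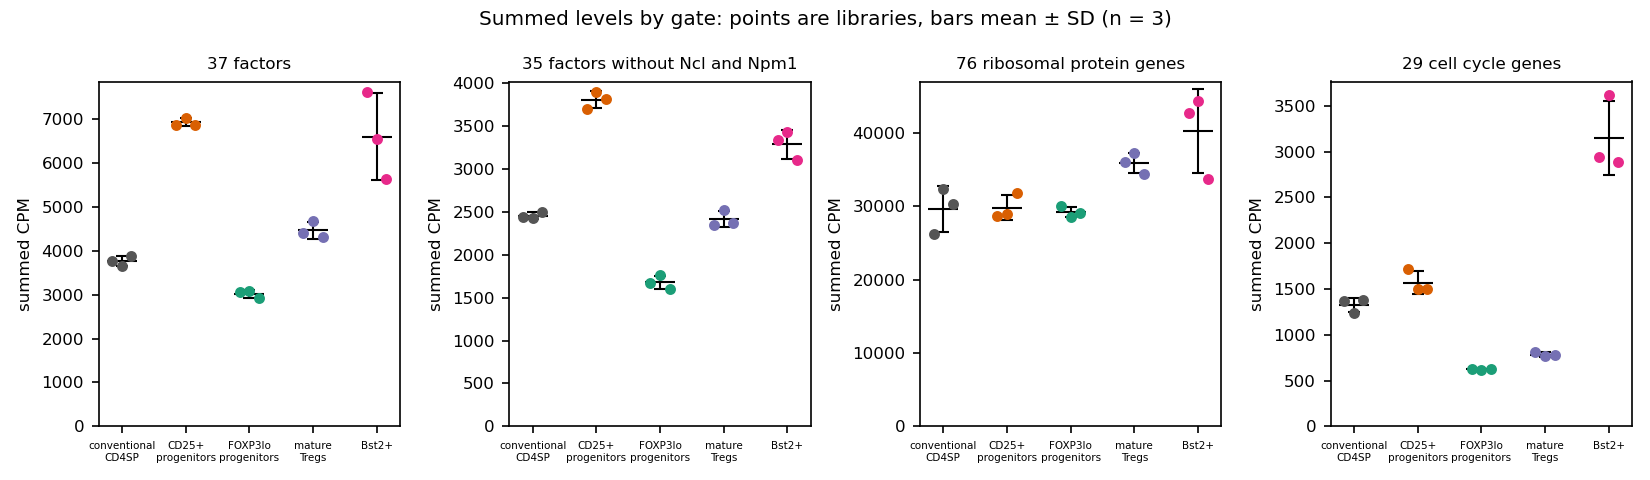
Summed CPM (y axis, from 0) of the 37 factors, of the 35 without Ncl and Npm1, of 76 ribosomal protein genes and of 29 cell cycle genes in 5 gates (x axis), with 1 point per library and bars for the mean ± SD of 3 libraries. The factors are highest in CD25+ progenitors among the BST2-negative gates, ribosomal protein genes are highest in mature Tregs among those gates, and cell cycle genes are low in both FOXP3-positive gates and highest in the Bst2+ gate.

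Of 10 tested genes of the MYC network, Myc and Mycn among them, 3 rose and 2 fell in the CD25+ gate against conventional cells. In the FOXP3lo gate 4 rose and 1 fell, and in mature Tregs 5 rose and 2 fell. The medians were −0.05, 0.07 and 0.19. Of all genes, 14.7%, 12.8% and 15.1% rose and 14.3%, 12.3% and 15.3% fell in the same gates. Myc itself was at 68.8, 58.2 and 56.5 CPM in conventional, 82.0, 79.0 and 91.5 in CD25+, 56.5, 54.4 and 53.3 in FOXP3lo and 122, 94.2 and 105 in mature Treg libraries. It was highest in mature Tregs, with all 3 libraries above every library of the other BST2-negative gates, and rose against conventional cells by 0.81 ± 0.10 (adjusted p = 1.02e-08) in mature Tregs and by 0.46 ± 0.10 (adjusted p = 0.000248) in CD25+ progenitors, while in FOXP3lo progenitors it was at −0.16 ± 0.10 without passing the test. Its interaction was positive, 0.51 ± 0.14 (adjusted p = 0.00999). Mxd1, which encodes a partner of MAX that opposes MYC, averaged 61.2, 112, 193 and 325 CPM across conventional, CD25+, FOXP3lo and mature Treg libraries, and rose in all 3 against conventional cells (0.87 ± 0.08, 1.66 ± 0.08 and 2.41 ± 0.08). Mycn was low throughout, at 0.121, 0.0745 and 0.753 CPM in conventional cells and 1.85, 1.67 and 1.38 in CD25+ progenitors, with 0 counts in 2 FOXP3lo libraries and in all 3 mature Treg libraries, where a count of 0 allows up to 0.173 and 0.250 CPM (3 counts in a library, counting error only). It was higher in CD25+ than in FOXP3lo progenitors (adjusted p = 0.00292). The test of mature Tregs against conventional cells passed (adjusted p = 0.0328) but not with the replicate block (adjusted p = 0.0516). Among the conventional libraries only replicate 43 lay above 3 counts of Mycn, which are 0.121, 0.223 and 0.174 CPM in replicates 40, 42 and 43. Mki67, a marker of cycling cells, was at 211, 179 and 211 CPM in conventional, 234, 167 and 159 in CD25+, 64.1, 63.8 and 59.8 in FOXP3lo and 85.4, 51.7 and 66.7 in mature Treg libraries.

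The Bst2+ gate held high but uneven levels. The summed level of the 37 factors was 6594 ± 991 CPM (SD, n = 3), and without Ncl and Npm1 it was 3286 ± 169. Over all 5 gates 22 factors had their highest mean in CD25+ progenitors and 15 in the Bst2+ gate, a rank not counted over all genes. The median coefficient of variation of a factor was 19.9% there, up to 62.0% for Gar1, which was at 36.3, 12.5 and 14.8 CPM in replicates 40, 42 and 43. Ncl was at 3058, 1966 and 1724 CPM, Npm1 at 1218, 1145 and 811 and Fbl at 151, 74.6 and 73.4, all highest in replicate 40. Nop56 (131, 246 and 174) and Bop1 (14.9, 35.9 and 54.9) were lowest in that library. Dkc1 was at 174, 135 and 151, Polr1a at 101, 103 and 132 and Polr1b at 21.1, 37.7 and 29.1 CPM.

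Set against the mean of CD25+ progenitors, FOXP3lo progenitors and mature Tregs in a fit of all 15 libraries, 20 of 37 factors rose and 0 fell, by a median log2 fold change of 0.33, where 19.3% of 16069 genes tested rose, 19.8% fell and the median was −0.03. Dkc1 (0.87 ± 0.09, adjusted p = 1.13e-06), Nhp2 (1.26 ± 0.14, adjusted p = 2.23e-06; 85.2, 98.4 and 63.2 CPM) and Wdr12 (1.30 ± 0.14, adjusted p = 2.61e-06; 87.4, 86.5 and 53.7 CPM) had the smallest p-values, and Wdr12 was the highest. Wdr12 was low in FOXP3lo progenitors and mature Tregs, and its Bst2+ libraries overlapped only those of CD25+ progenitors. By role, 7 of 8 snoRNP proteins, 3 of 4 nucleolar proteins, 5 of 12 small-subunit and 5 of 11 large-subunit factors rose, and 0 of 2 polymerase subunits. Ncl (0.72 ± 0.11), Npm1 (0.66 ± 0.09), Fbl (0.70 ± 0.16) and Nop56 (0.50 ± 0.13) were among them, but Fbl did not pass in limma-voom (adjusted p = 0.0705) and Nop56 not without Bst2+ replicate 42 (adjusted p = 0.111). Utp4 was the lowest at −0.22 ± 0.17, and Utp20, the factor lowest in mature Tregs against CD25+ progenitors, was at −0.10 ± 0.08 with libraries at 82.0, 84.4 and 82.2 CPM.

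Other cell types and the cell cycle moved with this gate. Of 29 cell cycle genes 29 rose, by a median log2 fold change of 2.35 (2883 to 3616 CPM summed), and the markers of CD8 and immature thymocytes (798 to 1329), of gamma-delta T cells (111 to 311) and of B cells (68.2 to 807) were above those of the other gates in all libraries, beside the myeloid markers given above. Mycn was at 11.98, 2.99 and 2.90 CPM, and Myc at 99.96, 104 and 83.6. Ribosomal protein genes rose in 43 of 76 and fell in 1. The part of other cells and of the cell cycle in the result was not tested. The spread of this gate exceeds the 0.420 that the fit shared over all libraries, so its p-values may be too small. With limma-voom and sample weights 13 of 37 factors rose and 0 fell, where 9.3% of all genes rose and 5.16% fell. Gar1, not called at 0.15 ± 0.25, was lower at −0.49 (adjusted p = 0.0461) without replicate 40.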

How the data were processed

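Bulk RNA-seq of 15 libraries (5 gates with 3 replicates) was analysed from the count table that the authors deposited. Its values are raw counts of reads per gene from featureCounts 1.6.2 with the Ensembl 97 annotation of GRCm38, a mapping quality of at least 10 and strand setting 2, per the file headers. Trimmomatic 0.33, HISAT2 2.1.0 and featureCounts 1.4.6 are named in the submitters' processing notes. The labels give a stranded total RNA kit for small inputs (SMARTer Pico v2) and mention no molecular identifiers, so counts can include amplified copies. All 15 value columns were used, and 0 rows named no gene.

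Symbols were paired with Ensembl genes by position from RefSeq GRCm38.p6, which named 37148 of 55573 genes, 37 of 37 factors and 367 of 377 entries over 21 lists. The factors and lists were chosen with earlier results of these data known. Tests used edgeR 4.0.16 (R 4.3.3): filterByExpr, TMM scaling, the quasi-likelihood test with robust dispersion and Benjamini-Hochberg adjustment over all genes tested, called at an adjusted p under 0.05, for 8 comparisons. All adjusted p-values are from this test unless another is named. The 4 BST2-negative gates were fitted on 12 libraries (15648 genes) and the Bst2+ comparison on 15 (16069 genes), and the fit on 12 was chosen with the spread of the Bst2+ libraries known. A ± after a log2 fold change is its standard error and after a level the SD of 3 libraries. Levels per kilobase used the exonic length in the table.

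Values in every library are given for the factors with the smallest 3 p-values and the highest and lowest change of each comparison, for Ncl, Npm1, Fbl, Nop56, Dkc1, Polr1a and Polr1b, and for factors called against the main direction. From other lists up to 3 called genes with the smallest p per comparison could be named, and Myc, Mycn and Mki67 always. The library values of Gnl3 and Gar1 and the mean levels of the remaining factors were added after being seen. Alternatives were RLE scaling, other filters on low counts, the replicate number as a block, all 15 libraries, DESeq2 1.42.0, limma 3.58.1 voom with sample weights, leaving out the 20 most abundant genes, a test against a 1.5-fold change, and leaving out each library. Scripts were tested on simulated data with the same spread in every gate, so error rates under the wider spread of the Bst2+ libraries were not tested. The replicate numbers recur in every gate in the labels, which describe 3 biological replicates, and were taken to pair the samples. The main test did not use this pairing, which among the tests entered only the fit with the replicate number as a block. The deviations of same-numbered libraries from their gate means correlated across genes at −0.01 to 0.04 over 18 pairs of libraries. No 2 libraries of the same gate were duplicates, and libraries of different gates were not checked for duplication. Promoter motifs and sequences were not analysed here.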

Additional observations from a re-analysis of the deposited data

Results flagged for a closer look

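The difference between CD25-positive and CD25-negative gates was not the same without and with FOXP3 for 6 of the 37 factors, by the interaction term of edgeR's quasi-likelihood test. The interaction was −0.68 for Ncl, −0.54 for Npm1, −0.41 for Nolc1, −0.37 for Utp20 and −0.36 for Heatr1 on the log2 scale, so their rise was smaller in the FOXP3-positive pair of gates. It was 0.66 for Bysl, whose rise was larger there. The term compares gates, as the pairs also differed in FOXP3 level and in the fold rise of Il2ra. Of all genes tested, 5.39% were lower and 5.46% higher in this term. Only Ncl and Npm1 kept this call when any single library of the 12 was left out, and with all 15 libraries in the fit none of the 6 passed.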

How the results depend on the processing

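The direction of the factors' calls was the same in every alternative for the comparisons among the BST2-negative gates. The only reversed value was Gar1 in the Bst2+ comparison, not called with all libraries, which ran from −0.49 (adjusted p = 0.0461) without Bst2+ replicate 40 to 0.41 without replicate 42. With the replicate number as a block, 34 factors rose and 0 fell in CD25+ progenitors, 31 fell in FOXP3lo progenitors, 3 rose and 4 fell in mature Tregs, 37 were higher in CD25+ than in FOXP3lo progenitors, 36 fell and 28 rose in mature Tregs against CD25+ and FOXP3lo progenitors, 1 and 5 passed in the interaction and 20 rose in the Bst2+ gate. Of all genes tested with the block, 15% rose and 14.5% fell in CD25+ progenitors, and 12.6% fell in FOXP3lo progenitors. In mature Tregs 15.3% rose and 15.4% fell. Between the progenitors 19.9% were higher in the CD25+ gate. Mature Tregs had 17.1% lower than CD25+ and 9.53% higher than FOXP3lo progenitors. In the interaction 5.66% were higher and 5.56% lower, and 16.8% rose in the Bst2+ gate. Beside Wdr12, Utp15, Ltv1 and Mycn, the block changed no other call among the 37 factors, Myc, Mycn, Mxd1 and Mki67.

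The counts below run in the order CD25+ against conventional, FOXP3lo against conventional, mature against conventional, CD25+ against FOXP3lo, mature against CD25+, mature against FOXP3lo, and interaction. With all 15 libraries in the fit, factors higher numbered 20, 0, 2, 35, 0, 21 and 0, and lower 0, 22, 2, 0, 27, 0 and 0. All genes higher numbered 961, 784, 1037, 1595, 1090, 404 and 192, and lower 910, 616, 920, 1474, 1006, 355 and 186. The biological coefficient of variation was 0.420 in that fit and 0.184 on 12 libraries.

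Tested against a 1.5-fold change, 10 factors were higher in the first comparison, 6 lower in the second, 0 higher and 1 lower in the third, 9 lower in the fifth, 3 higher in the sixth, 0 and 0 in the interaction and 4 higher in the Bst2+ gate. All genes higher numbered 673, 462, 764, 1196, 688, 240 and 141, and 1525 for the Bst2+ gate, and lower 479, 405, 673, 862, 650, 172 and 228, and 1270. That test asks for a larger change, and 30 of 37 factors still passed between the progenitors.

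Without a filter on low counts 3 factors were lower in the interaction, where 2.16% of all genes were, and 5154 genes rose in the Bst2+ gate. In DESeq2, in limma-voom and without the 20 most abundant genes, 0 factors were higher in the interaction. Of all genes 6.03%, 5.51% and 5.33% were, in the same order. With limma-voom, 13 factors rose in the Bst2+ gate, and of all genes 1494 rose and 829 fell. For these shifts the cause was not tested.

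Leaving out each library in turn, 28 to 35 factors rose in CD25+ progenitors, 29 to 31 fell in FOXP3lo progenitors, 2 to 4 rose and 2 to 5 fell in mature Tregs, 37 were higher between the progenitors, 33 to 36 were lower and 26 to 29 higher in mature Tregs against CD25+ and FOXP3lo progenitors, 0 to 2 and 2 to 7 passed in the interaction, and 18 to 21 were higher and 0 to 1 lower in the Bst2+ gate. Of all genes, 1970 to 2453 rose in CD25+ progenitors and 1501 to 2019 fell in FOXP3lo progenitors. In mature Tregs 2047 to 2390 rose and 2010 to 2419 fell. Between the progenitors 2727 to 3219 were higher. Mature Tregs had 2263 to 2745 lower than CD25+ and 1156 to 1482 higher than FOXP3lo progenitors. In the interaction 671 to 816 were higher and 698 to 912 lower, and in the Bst2+ gate 3117 to 3618 and 2916 to 4040. Beside the losses given in the report, calls were lost in CD25+ progenitors for Wdr75 (adjusted p up to 0.205, without CD25+ replicate 42), Tsr1 (0.0888, without CD25+ replicate 42), Utp4 (0.0676, without CD25+ replicate 42) and Gnl3 (0.0700, without conventional replicate 43), in FOXP3lo progenitors for Pes1 (0.346, without FOXP3lo replicate 43) and Ddx18 (0.0577, without FOXP3lo replicate 40), in mature Tregs against CD25+ progenitors for Rrp1b, Utp15, Wdr75 and Bop1 and against FOXP3lo progenitors for Ddx18, Rrs1 and Pes1, and in the Bst2+ gate for Noc2l, Wdr43 and Rrp9. The 3 libraries a gate limit the precision of each value. A share of RNA does not give the number of molecules per cell.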
